A study of Mus musculus with 2 samples.

Results

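The 8 genes described here encode GABA-A receptor subunits (Gabra2, Gabra3, Gabra5 and Gabrb2), glycine receptor subunits (Glra2 and Glrb) and the chloride cotransporters NKCC1 (Slc12a2) and KCC2 (Slc12a5). The rule names them and sets no limit on their values, and all 8 were found among the 55536 mouse genes of GENCODE M21, the gene annotation used for the quantification. Expression was measured by polyA RNA-seq in 2 libraries of hindbrain from B6NCrl mouse embryos at embryonic day 12.5, with both sexes mixed. Pool 1 combined the hindbrains of 120 embryos and pool 2 those of 88 embryos, and each library started from 10 ng of RNA. The pools are biological replicates of 1 group of healthy embryos. No condition was contrasted with another, so differences between pools are replicate spread and no test was made.

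GABA-A receptors are chloride channels opened by GABA, and most are built from alpha, beta and gamma subunits, with the alpha subunit setting much of the drug response and location of the receptor. Glycine receptors are related chloride channels formed by alpha subunits with the beta subunit Glrb, which binds the scaffold gephyrin, and glycine is a main inhibitory transmitter of the hindbrain and spinal cord. Whether such channels depolarise or hyperpolarise a neuron depends on its chloride gradient: NKCC1 brings chloride into the cell and KCC2, made in neurons, exports it, and KCC2 rises as neurons mature. The hindbrain at this age holds both dividing progenitors and young neurons.

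KCC2 is made from a pair of promoters with separate first coding exons, and several values below depend on which Slc12a5 or Gabra2 transcript the reads were assigned to, so the bases that tell those transcripts apart are shown first. They were read from GENCODE M21 transcripts on the mm10 build and run 5′ to 3′ on the gene's own strand. In the first sequence the capitals mark the start codon. It comes from the upstream exon of Slc12a5-207 and gives the KCC2a type of protein start, while Slc12a5-201 and Slc12a5-208 start at the downstream exon, which gives the KCC2b type. The second is a 15-base coding exon that Slc12a5-201 has and Slc12a5-207 lacks. In the third, lower case is the end of exon 6 and capitals the first 30 bases of exon 7 of Slc12a5-208, a join no other annotated Slc12a5 transcript makes. The fourth, on the minus strand, is the coding stretch at the start of exon 5 of Gabra2-203 that Gabra2-204 leaves out.
Slc12a5 upstream first coding exon, chr2:164960883-164961003, plus strand: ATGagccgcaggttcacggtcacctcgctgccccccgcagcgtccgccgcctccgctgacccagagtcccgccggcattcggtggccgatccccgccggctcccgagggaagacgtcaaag
Slc12a5-201 exon 24, chr2:164996864-164996878, plus strand: ggagtgggaaaactt
Slc12a5-208 join of exons 6 and 7, from chr2:164976433 to chr2:164999228, plus strand: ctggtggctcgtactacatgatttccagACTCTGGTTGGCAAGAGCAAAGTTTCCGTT
Gabra2-203 start of exon 5, chr5:71014576-71014636, minus strand: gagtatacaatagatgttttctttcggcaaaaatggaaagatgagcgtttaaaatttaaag

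Gene totals were 31469575 expected counts for pool 1 and 29261472 for pool 2. An expected count is the number of reads assigned to a gene after reads that fit several transcripts are shared among them. Hindbrain genes were present in both pools: Hoxb2 was at 45.1 and 56.7 TPM and Hoxa2 at 40.4 and 53.8 TPM in pools 1 and 2, and 7 of 8 listed hindbrain markers were at 1 TPM (a level per transcript length, scaled to a fixed total in each library) or more in both. Forebrain markers were not absent, with Lhx2 at 24.2 and 23.8 TPM and 3 of 6 markers at 1 TPM or more in both pools. Postmitotic neuron markers summed to 1958 and 2036 TPM in pools 1 and 2, and radial glia and progenitor markers to 2700.0 and 2481 TPM, with all 8 of each list at 1 TPM or more. Skeletal muscle markers stood apart: all 5 were more than 1.5-fold higher in pool 2, and they summed to 25.6 and 129 TPM in pools 1 and 2. In such bulk tissue, fewer cells of a type and less RNA per cell cannot be told apart.

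All 8 genes were transcribed in both pools, and 7 of the 8 reached 1 TPM or more in both. Of the 22028 protein-coding M21 genes, 61.8% did so. Gabra5 was the exception, at 0.85 and 1.41 TPM in pools 1 and 2. Levels per length ran, by mean, from Glrb through Slc12a5, Slc12a2, Gabra2, Gabrb2, Glra2 and Gabra3 down to Gabra5. In 2 of the 7 neighbouring pairs in that order, Slc12a5 with Slc12a2 and Gabra2 with Gabrb2, the pools overlapped and the order was not separated by their spread. The median of the 8 mean levels was 8.37 TPM, against 16.9 TPM over all genes at 1 TPM or more in both pools.

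**Figure D1:**
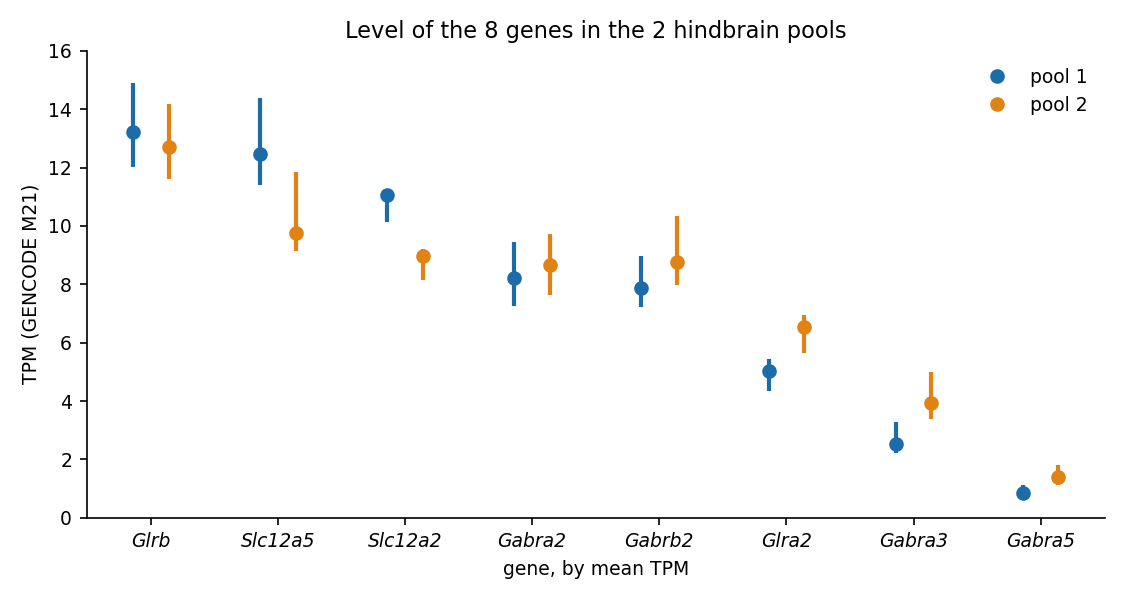
TPM of the 8 genes (y axis) in pool 1 (blue) and pool 2 (orange), ordered by mean. Points are the deposited TPM and vertical lines the deposited interval, whose level is not stated. Glrb lies at 12.7 TPM or more in both pools and Gabra5 at 1.41 TPM or less.

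Among the alpha subunits, Gabra2 led by TPM over all transcripts of each gene. Gabra2, which encodes a subunit found widely in embryonic brain, was at 8.21 and 8.65 TPM in pools 1 and 2 (8.43 ± 0.311, SD, n = 2), from 582 and 586 counts. The deposited intervals of the pools overlap, 7.26 to 9.44 TPM in pool 1 and 7.63 to 9.73 TPM in pool 2. The gene lies on the minus strand of chromosome 5 (chr5:70957597-71095849) between Gabrg1 and Gabra4, and it made up 52.2% of the summed alpha TPM in pool 1 and 47.3% in pool 2. Over transcripts annotated as protein coding alone, Gabra2 was at 2.13 and 1.79 TPM, below Gabra3 at 2.53 and 3.54 TPM.

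Gabra3, an alpha subunit gene prominent in the developing brain, was at 2.53 and 3.94 TPM in pools 1 and 2 (3.24 ± 0.997, SD, n = 2), from 180 and 236 counts. The deposited intervals of the pools, 2.23 to 3.28 TPM and 3.37 to 5.00 TPM, did not overlap. The share of all genes whose intervals do not overlap between the pools was not computed. Such a gap therefore cannot be called particular to a gene described here. Gabra3 lies on chrX:72432681-72656848, minus strand, between Gabre and Gabrq. Gabra5, whose subunit forms receptors that sit mostly outside synapses, was the lowest of the 8 at 1.13 ± 0.396 TPM (SD, n = 2), from 40 and 66 counts. Exact Poisson 95% intervals of those counts were 28.6 to 54.5 in pool 1 and 51.0 to 84.0 in pool 2. They overlap, and Poisson and binomial intervals here cover counting error only. Gabra5 (chr7:57407672-57510059, minus strand) shares 148 exon bases with the antisense gene Gm9962. The sources used here do not say whether counting used the strand. Without it, reads of Gabra5 and of Gm9962, which was assigned 0 counts in both pools, cannot be told apart over those bases.

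Of the other alpha genes, Gabra4 was lower than Gabra2, at 1.83 and 1.85 TPM. Gabra6, whose subunit marks mature cerebellar granule neurons, had 0 counts in both pools. A level of 3 counts would be 0.0731 and 0.0793 TPM in pools 1 and 2, and the deposited intervals reach 0.163 and 0.174 TPM.

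Gabrb2, a beta subunit gene, was close to Gabra2 in level. It was at 7.87 and 8.75 TPM in pools 1 and 2 (8.31 ± 0.622, SD, n = 2), from 583 and 572 counts, and the deposited intervals of the pools overlap. Gabrb2 lies on chr11:42419757-42629028, plus strand, and supplied 34.1% of the summed beta TPM in pool 1 and 33.3% in pool 2. Gabrb1, another beta subunit gene, was lower, at 2.04 and 1.41 TPM.

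Of the gamma subunit genes, Gabrg1 was at 0.87 and 1.55 TPM and Gabrg3 at 0.35 and 0.43 TPM. The alpha subunits summed to 15.7 TPM in pool 1 and 18.3 TPM in pool 2. Their share of the summed alpha, beta and gamma TPM was 24.3% in pool 1 and 24.4% in pool 2, and 16.6% and 17.3% when the sum was taken over transcripts annotated as protein coding. Of the other GABA-A genes, Gabrp was highest at 3.75 and 5.04 TPM, Gabrq was at 1.34 and 1.33 TPM and Gabre at 0.95 and 0.88 TPM. Gabrr1 had 0 counts and Gabrd 1 count in each pool. Of all 24 GABA-A and glycine receptor subunit genes, 13 were at 1 TPM or more in both pools, against 61.8% of protein-coding M21 genes.

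**Figure D2:**
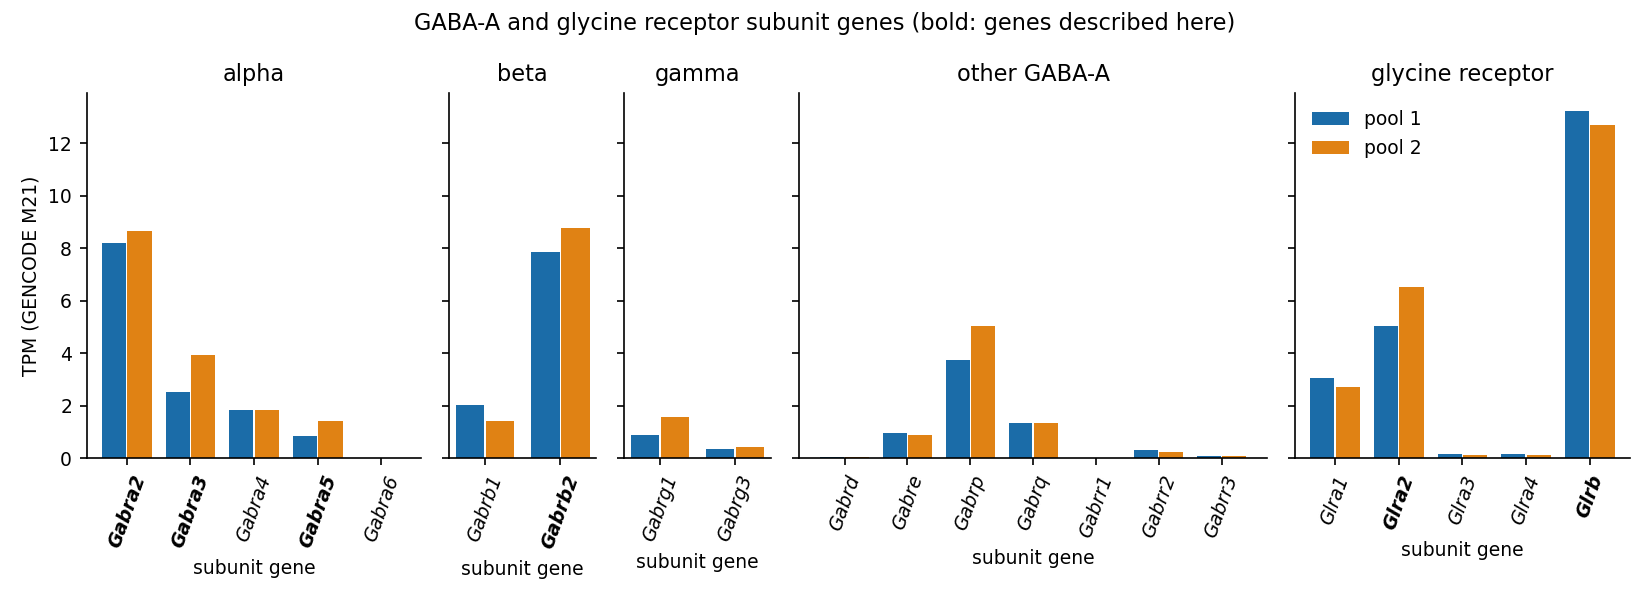
TPM (y axis) of receptor subunit genes in pool 1 (blue bars) and pool 2 (orange bars), by class, with the names of the genes described here in bold. Some subunit genes are not drawn. Glrb is the tallest pair drawn, at 13.2 and 12.7 TPM, and Gabra2 is above Gabra3 in both pools.

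The glycine receptor was represented mainly by Glrb and Glra2. Glrb, the beta subunit gene, was the highest of the 8 genes at 13.2 and 12.7 TPM in pools 1 and 2 (13.0 ± 0.368, SD, n = 2), from 709 and 645 counts. It lies on chr3:80843599-80913660, minus strand. Glra2, the alpha subunit gene typical of embryonic neurons, was at 5.02 and 6.52 TPM in pools 1 and 2 (5.77 ± 1.06, SD, n = 2), from 306 and 366 counts. Its deposited intervals, 4.34 to 5.43 TPM and 5.65 to 6.94 TPM, did not overlap, and the share of all genes with such a gap was not computed. Glra2 lies on chrX:165129017-165327393, minus strand.

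Glra1, the main adult alpha subunit, was at 3.04 and 2.72 TPM, and the Glra2 to Glra1 TPM ratio was 1.65 in pool 1 and 2.40 in pool 2. Glra3 was at 0.17 and 0.12 TPM and Glra4 at 0.14 and 0.13 TPM. Glrb exceeded the sum of all alpha subunit genes 1.58-fold in pool 1 and 1.34-fold in pool 2. The 5 glycine receptor genes together came to 21.6 and 22.2 TPM, a sum that differed little between the pools.

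Of the chloride cotransporters, Slc12a5 and Slc12a2 were close in TPM. Slc12a5 (KCC2, chr2:164960802-164999731, plus strand) was at 12.45 and 9.76 TPM in pools 1 and 2 (11.1 ± 1.90, SD, n = 2), from 843 and 758 counts. Slc12a2 (NKCC1, chr18:57878678-57946821, plus strand) was at 11.05 and 8.98 TPM in pools 1 and 2 (10.0 ± 1.46, SD, n = 2), from 1390 and 1046 counts. Pool 1 was above pool 2 for both genes. The deposited intervals did not overlap between pools for Slc12a2 (10.1 to 11.3 and 8.14 to 9.20 TPM) and did for Slc12a5 (11.4 to 14.4 and 9.13 to 11.8 TPM). Here too the share of all genes without overlap was not computed. Neither cotransporter gene was the highest of its family. The potassium chloride cotransporter Slc12a7 was at 30.4 and 27.5 TPM and Slc12a9 at 18.3 and 16.8 TPM. The kidney genes Slc12a1 and Slc12a3 stayed at 0.15 TPM or less in both pools.

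The Slc12a2 to Slc12a5 TPM ratio was 0.888 in pool 1 and 0.920 in pool 2 (0.904 ± 0.0230, SD, n = 2), so Slc12a5 was slightly the higher in both. The side of 1 on which this ratio fell depended on how Slc12a5 was summed. With the older GENCODE M4 annotation, quantified by the authors from the same libraries, the ratio was 1.15 in pool 1 and 1.06 in pool 2. Slc12a5 had 10 annotated transcripts in M21 and 4 in M4, and its mean TPM was 1.23-fold higher with M21, while Slc12a2 differed 1.00-fold. None of the 8 genes differed by 25% or more between the annotations, as 11.3% of 14263 genes did.

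The short transcript Slc12a5-208 carried much of the gene's TPM and few of its reads. It is 1202 bases long, starts at the downstream exon and joins the first 28 bases of exon 6 to a site within the last exon, over an intron that begins with GT and ends with AG. All of its 1202 bases are also in Slc12a5-201, so only the join printed above and its ends set it apart. It was assigned 37.6% of the gene's TPM in pool 1 and 21.4% in pool 2, but 12.2% of its counts in pool 1 (103 counts) and 5.60% in pool 2 (42.4 counts). Its level was 4.68 and 2.09 TPM in pools 1 and 2, a difference of 2.59 TPM, against 2.69 TPM for the whole gene. Without it, Slc12a5 was at 7.77 and 7.68 TPM in pools 1 and 2, and the Slc12a2 to Slc12a5 ratio was 1.42 and 1.17. That ratio was chosen after seeing the data, and leaving out a Slc12a5 transcript can only raise it. M4 has no counterpart of Slc12a5-208.

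The full-length KCC2 transcripts, summed, were nearly level between the pools. Slc12a5-207, with the upstream first exon (5690 bases, 25 exons), was at 4.30 and 3.49 TPM in pools 1 and 2. Slc12a5-201, with the downstream first exon and the 15-base exon 24 (6028 bases, 26 exons), was at 1.67 and 2.71 TPM. Together they came to 5.97 and 6.20 TPM, which differed less between pools than either alone. Slc12a5-207 made up 72.0% of this sum in pool 1 and 56.3% in pool 2. The ratio of the full-length NKCC1 transcript Slc12a2-201 to this sum was 1.74 in pool 1 and 1.38 in pool 2. It too was chosen after seeing the data, and leaving out the other Slc12a5 transcripts raises it. Slc12a5-209, which joins the upstream exon to a body with exon 24, was assigned 0 TPM in both pools. Most of their bases are common: 5532 of the 5690 bases of Slc12a5-207 are also in Slc12a5-201, so the division between the starts rests on few reads. Deposited intervals of Slc12a5-207 and Slc12a5-201 overlap, at 2.52 to 5.16 and 0.524 to 2.95 TPM in pool 1. In pool 2 they overlap as well, at 2.28 to 4.30 and 1.53 to 3.43 TPM.

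**Figure D3:**
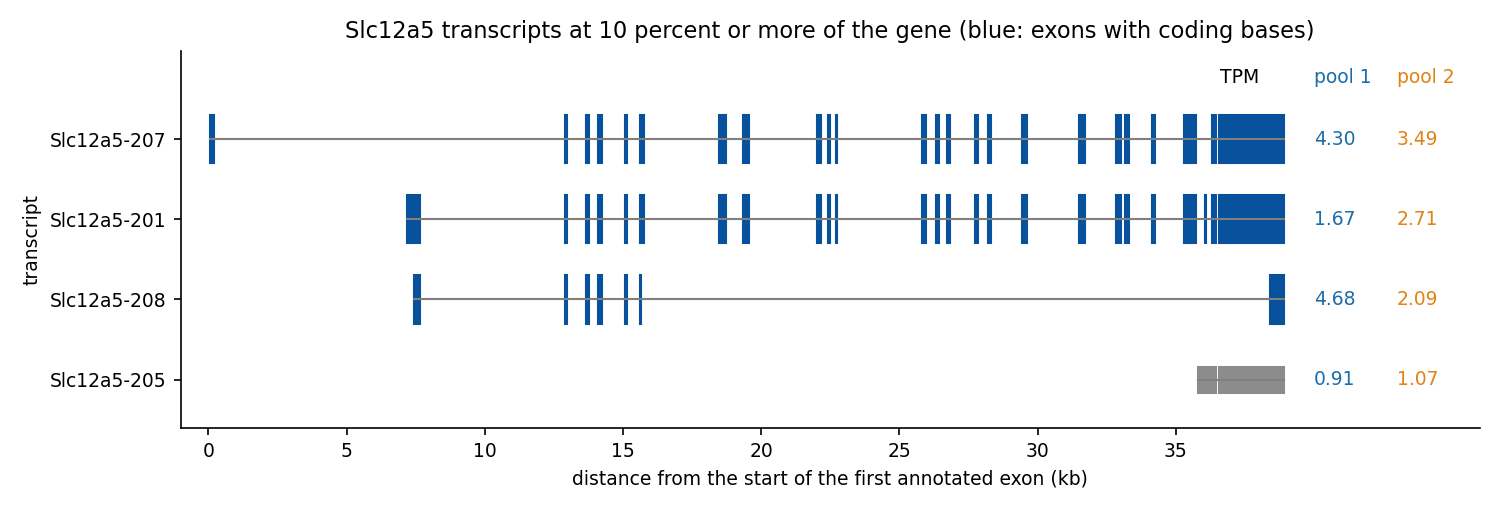
Exons of the 4 Slc12a5 transcripts that reached 10% of the gene in either pool, drawn to scale by distance from the first annotated exon (x axis, kb), with TPM in pool 1 (blue) and pool 2 (orange) at the right. Tall blue boxes hold coding bases, not always over their whole length, and grey boxes hold none. Slc12a5-208, at 4.68 and 2.09 TPM, skips the body of the gene.

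**Figure D4:**
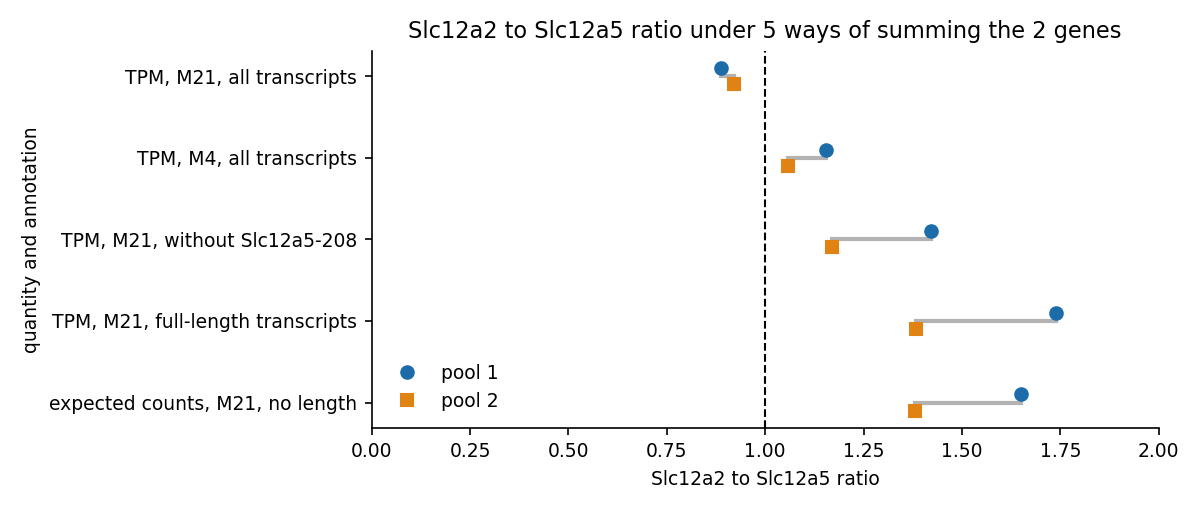
Slc12a2 to Slc12a5 ratio (x axis) in pool 1 (blue circles) and pool 2 (orange squares) under 5 ways of summing the genes, with a dashed line at 1. The M21 TPM over all transcripts gives 0.888 and 0.920, and the other 4 ways give values above 1 in both pools. Of those 4, only the M4 ratio was planned. The others were chosen after seeing the data, with a direction largely set beforehand, so the 4 are not separate evidence on the side of 1.

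Since both first exons of Slc12a5 were assigned reads, the annotated promoter windows were examined (RefSeq, GRCm38.p6, 250 bases before to 50 after each gene start). Both are printed only up to the last base before the first annotated exon, and capitals mark a match to a searched motif. Motifs were searched on both strands of the whole windows: CACGTG, the E-box bound by USF factors, GCGTGGGCG and GCGGGGGCG, bound by EGR factors, and TATAAA. The downstream window held CACGTG, as 7.15% of all 32851 promoter windows did. Neither Slc12a5 window held GCGTGGGCG (0.612% of windows), GCGGGGGCG (2.91%) or TATAAA (13.6%). Each Slc12a5 window held 21 CpG dinucleotides, against a median of 7 over all windows. The 11 windows of the 7 genes with an entry ran from 0 CpG in both Gabra3 windows to 30 in that of Glrb.
Slc12a5 upstream promoter, chr2:164960596-164960801, plus strand: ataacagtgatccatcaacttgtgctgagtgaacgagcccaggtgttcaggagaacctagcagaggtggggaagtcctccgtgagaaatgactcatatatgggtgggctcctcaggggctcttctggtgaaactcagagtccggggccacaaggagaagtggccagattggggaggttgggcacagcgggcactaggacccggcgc
Slc12a5 downstream promoter, chr2:164967738-164967982, plus strand: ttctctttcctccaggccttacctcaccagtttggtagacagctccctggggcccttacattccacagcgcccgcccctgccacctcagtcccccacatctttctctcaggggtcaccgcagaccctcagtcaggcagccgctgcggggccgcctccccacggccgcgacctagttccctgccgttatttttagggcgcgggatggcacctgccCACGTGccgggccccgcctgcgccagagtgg

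Gabra2 was the 1 gene of the 8 whose leading transcript was not annotated as protein coding in both pools. Of 12169 protein-coding genes with several transcripts and 50 or more mean counts, 7.87% had such a leading transcript in both. Gabra2-204, annotated as a target of nonsense-mediated decay, took 51.1% of the gene's TPM in pool 1 and 59.0% in pool 2, or 4.19 and 5.10 TPM. Gabra2-203, the coding transcript, took 26.0% and 20.7%, or 2.13 and 1.79 TPM. The retained-intron transcript Gabra2-205 took 16.7% and 5.67%.

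Gabra2-204 lacks the 61 bases printed above, which is not a multiple of 3. All 3867 of its bases are also in Gabra2-203, and its last exon is annotated at 2618 bases against 4502 bases in Gabra2-203. Reads over the rest of the gene fit both, so how its TPM divides between them cannot be told apart well from these tables. M4 holds 1 Gabra2 transcript of 2392 bases, which was assigned 338 and 372 counts, fewer than the 582 and 586 with M21, at a like 7.77 and 9.27 TPM. Counting coding transcripts alone, Gabra3, at 2.53 and 3.54 TPM in pools 1 and 2, lay above Gabra2 in both.

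The other genes had a coding leading transcript. Glra2 has 1 annotated transcript, Glra2-201. Gabra3-201 took 100% of Gabra3 in pool 1 and 89.8% in pool 2, where the noncoding Gabra3-203 took the other 10.2% on 3.60 counts. Gabrb2-201 took 92.4% and 86.2%, Glrb-201 took 82.2% and 86.7%, and Slc12a2-201 took 93.9% and 95.4%. The 3 transcripts of Gabra5 share 1389 coding bases before the stop codon. Gabra5-201 took 52.4% and 64.5%, Gabra5-203 took 47.6% and 0%, and Gabra5-202 took 0% and 35.5%, at no more than 66 counts for the gene. Of the 7 genes with several transcripts, Slc12a5 alone changed its leading transcript, which by TPM was Slc12a5-208 in pool 1 and Slc12a5-207 in pool 2. In pool 1 their deposited intervals overlap, 3.30 to 5.61 TPM for Slc12a5-208 and 2.52 to 5.16 TPM for Slc12a5-207. The lead in that pool, and so the change, was not separated by these intervals. By expected counts Slc12a5-207 led in both pools, with 56.9% and 47.4% of the gene, and all 8 genes kept their leading transcript. All 8 kept theirs with M4 as well, but Gabra2, Gabra5, Glra2 and Slc12a2 have only 1 transcript there and could not change. M4 also lacks Slc12a5-208, so the change seen for Slc12a5 could not occur. Among the 12169 genes, 9.46% changed theirs by TPM.

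**Figure D5:**
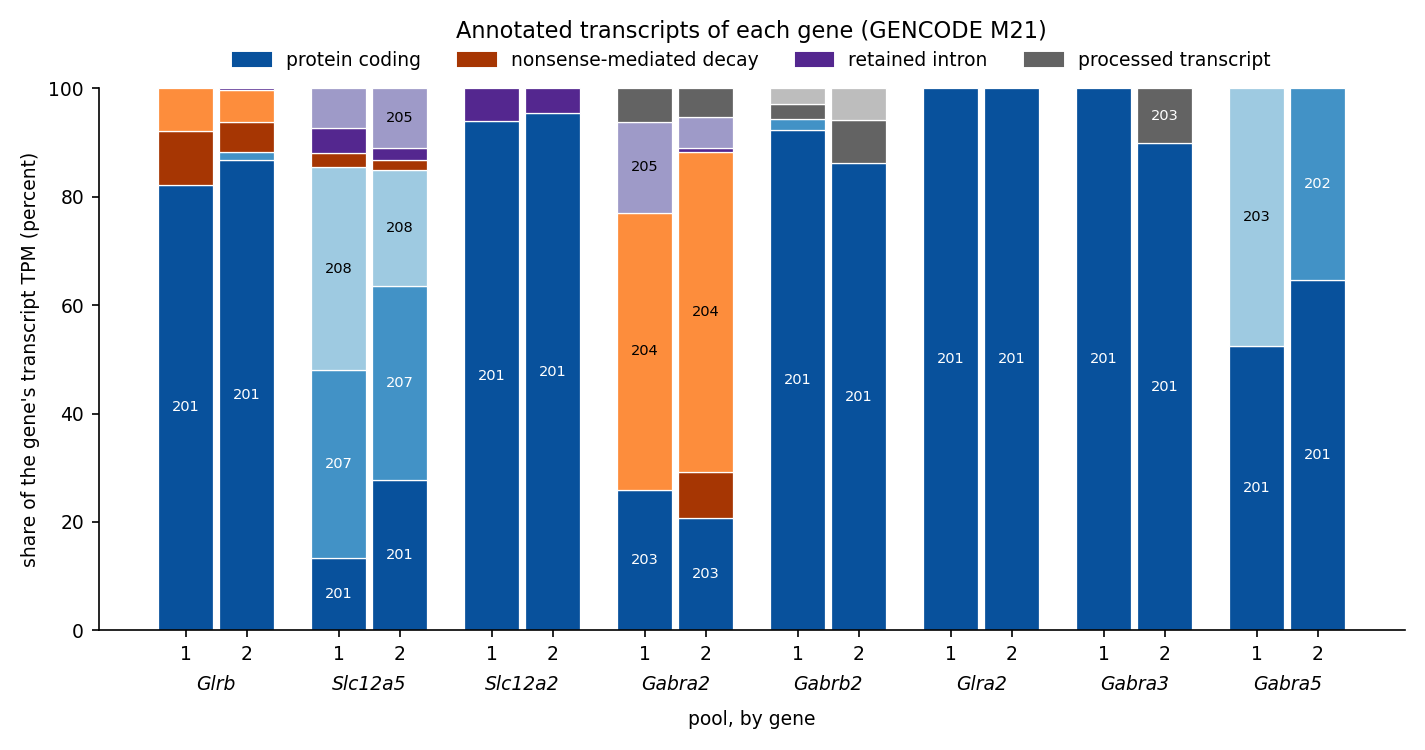
Share of each gene's transcript TPM (y axis, percent) by annotated transcript, with pool 1 left of pool 2 for each gene. Colours give the annotated type, shades separate transcripts of a type, and numbers name transcripts at 10% or more. Gabra2 is mostly orange (Gabra2-204, at 51.1% and 59.0%), and Slc12a5 divides among several coding transcripts.

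The 8 genes differed between the pools in both directions. Counts were scaled with the trimmed mean of M values (TMM), which matches the pools on most genes, and ratios are pool 1 over pool 2. Of the 8, 3 were higher in pool 1 and 5 in pool 2. The median size of the log2 ratio was 0.21 for the 8 genes and 0.10 over all genes of 50 or more mean counts. These sets were not matched for level or counts, and fewer counts widen a ratio by counting error alone. Slc12a2 had the largest ratio in favour of pool 1, 1.23-fold, with a binomial 95% counting interval of 1.14 to 1.34. Slc12a5 was 1.03-fold and Glrb 1.02-fold higher in pool 1. The Slc12a5 TPM ratio was larger, 1.28-fold, as TPM divides by an effective length, which was 3391 bases in pool 1 and 4217 bases in pool 2.

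Gabra2 was 1.08-fold and Gabrb2 1.06-fold higher in pool 2, within counting error. Glra2 was 1.29-fold and Gabra3 1.41-fold higher in pool 2. Gabra5 was 1.77-fold higher in pool 2, the 1 gene of 8 past 1.5-fold under TMM scaling, and the interval of its pool 1 to pool 2 ratio was 0.370 to 0.846. Of the 14995 genes of 50 or more mean counts, 3.43% were 1.5-fold or more apart in either direction, and all 8 genes met that minimum, Gabra5 with a mean of 53 counts. Under scaling to the spike-in RNAs, which shifts the median of all genes by 0.37 on the log2 scale toward pool 1, Gabra2, Gabrb2 and Glra2 lay on the side of pool 1. Under that scaling Gabra5 was no longer past 1.5-fold (log2 ratio -0.45), and Slc12a2 was instead, 1.60-fold higher in pool 1 (0.68). Of 62 pathway genes of enough counts, Gabra5 and Gabrg1 (0.87 and 1.55 TPM) were past 1.5-fold under TMM scaling.

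Marker lists also differed between the pools, and no marker in them was at 0 in either pool. Under TMM scaling, 6 of 8 neuron markers (median log2 ratio -0.13), all 8 hindbrain markers (-0.36) and all 6 mesenchyme and meninges markers (-0.31) were higher in pool 2, and these medians turned to 0.24, 0.02 and 0.07 under spike-in scaling. The choroid plexus (-0.21), endothelium (-0.10), microglia (-0.02) and forebrain (-0.20) medians turned likewise. Skeletal muscle (-2.33) and cranial ganglion markers (-0.38, 4 of 5 higher in pool 2) stayed on the side of pool 2 under both, the second at -0.0043 with spike-ins. Under both scalings the medians of radial glia and progenitor markers (0.10), erythroid markers (0.30) and surface epithelium markers (0.62) lay on the side of pool 1. Slc12a2 differed in the direction of these last 3 lists, and Gabra3 and Gabra5 in that of muscle and ganglion. Under TMM, Gabra2, Gabrb2 and Glra2 also lay on the side of pool 2, as did the neuron, hindbrain, mesenchyme and other medians that turned. That side was therefore not particular to muscle and ganglion. The part of any of these cell types in the ratios was not tested.

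Most listed genes of the inhibitory pathway were present. The 11 lists hold 76 measured genes and include the genes described here. Of the 76, 60 were at 1 TPM or more in both pools. Of all protein-coding M21 genes, 61.8% were at 1 TPM or more in both pools. All 14 scaffold and assembly genes were, led by Gabarap at 463 and 466 TPM, Gabarapl2 at 256 and 251 TPM and Clptm1 at 86.5 and 88.1 TPM. All 6 kinases that set cotransporter activity were, led by Wnk1 at 52.7 and 54.4 TPM, Stk39 (SPAK) at 44.1 and 42.3 TPM and Oxsr1 at 15.2 and 14.5 TPM.

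All 11 genes of transmitter synthesis and transport were at 1 TPM or more in both pools. The GABA-degrading enzyme Abat was at 52.9 and 60.6 TPM, the glycine-producing enzyme Shmt2 at 51.9 and 51.8 TPM and the GABA-producing enzyme Gad2 at 39.3 and 44.9 TPM. Gabbr1 of the GABA-B receptor was at 32.6 and 32.1 TPM, while its partner Gabbr2 was at 1.01 and 1.10 TPM. Of 10 other chloride channels and exchangers 8 passed, led by Clcn3 at 35.9 and 36.2 TPM, Clcn2 at 31.4 and 30.7 TPM and Slc4a2 at 29.5 and 30.7 TPM. Cftr (0.15 and 0.36 TPM) and Ano2 (0.19 and 0.13 TPM) were the other 2.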

How the data were processed

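Per the file headers, the authors deposited expected counts, TPM and FPKM per gene and transcript for each library, with interval bounds for TPM (level and program not given in the sources used here), on mm10 with GENCODE M21 and separately with M4. Per the labels, RNA was extracted with mirVana, primed with oligo-dT and fragmented by Nextera tagmentation, with ERCC spike-ins. No molecular identifiers are mentioned. TPM runs over all entries, and genes held 92.0% of it in pool 1 and 89.7% in pool 2.

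Symbols came from GENCODE M21. Expected counts were rounded and scaled by TMM (edgeR 4.0.16, R 4.3.3; DESeq2 1.42.0 size factors as an alternative), with a prior count of 0.5 and genes of 50 or more mean counts. FPKM served only for an alternative ratio. Levels are given as mean ± SD over 2 pools, with no p-value. Named were all 8 genes, in each pathway list the 3 others of highest mean TPM and up to 2 under 1 TPM in both pools, member transcripts at 10% or more of their gene, and leading markers, except items that are not reported here. The genes and lists were chosen with earlier results of these data known. Of 77 listed pathway genes, 1 had no match.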

Additional observations from a re-analysis of the deposited data

How the results depend on the processing

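The Slc12a2 to Slc12a5 TPM ratio (mean 0.904) fell on the other side of 1 with GENCODE M4 (1.11) and, in alternatives chosen after seeing the data, without Slc12a5-208 (1.30), with full-length transcripts alone (1.56) and with expected counts not divided by length (1.51). It was 0.904 with FPKM, and 0.888 to 0.920 in either pool alone. The direction of the alternatives chosen after seeing the data was largely set beforehand. Leaving out Slc12a5 transcripts lowers the sum that Slc12a2 is divided by, and counts not divided by length favour the longer Slc12a2. The alpha share (24.4%) was 23.0% with M4, 24.5% without subunits under 1 TPM in both pools and, chosen after seeing the data, 16.9% with coding transcripts alone. The members 1.5-fold apart (1) numbered 3 at a limit of 25% and 0 at 2-fold. Under spike-in totals the 1 member was Slc12a2 (log2 ratio 0.68), no longer Gabra5 (-0.45). All 8 members had the same leading transcript in both pools by expected counts and with M4, against 7 by M21 TPM. With M4 this was partly fixed, since Gabra2, Gabra5, Glra2 and Slc12a2 have 1 transcript there and Slc12a5-208 is absent. The log2 ratios of Gabra2, Gabrb2 and Glra2 turned to 0.26, 0.29 and 0.0093 under spike-in totals. For single genes, 10 values moved by more than the limits below without turning. They include the spike-in log2 ratios of Gabra5 and Slc12a2 above and those of Gabra3 (-0.12), Glrb (0.40) and Slc12a5 (0.42). The rest were the mean TPM of Glrb and Slc12a5 with M4, and of Gabra2, Gabrb2 and Glrb with TPM taken over genes alone. The cause was not tested, beyond the transcripts each sum holds. Of the other values under alternatives, 26 for the main comparisons, the spike-in and leading-transcript counts just named among them, and 51 for single genes moved by less than the SD between pools, for log2 ratios the SD of log2 ratios over genes, or for counts by 1.5-fold at most.

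No paired analysis was possible because the 2 pools form 1 group. With 2 pools, an SD rests on 1 difference. Gabra5, at 40 and 66 counts, is limited by depth, and short reads do not tell overlapping transcripts apart.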
